A study of Branchiostoma belcheri with 2 samples.

Results

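The microRNAs (miRNAs) of the miR-17-92 and miR-25 family were examined on arrays of gill RNA from *Branchiostoma belcheri*, an amphioxus and thus a chordate without a backbone. Members were all probes whose name after the species prefix is miR-17, miR-18, miR-19, miR-20, miR-25, miR-92, miR-93, miR-106 or miR-363 with any suffix, which gave 85 of the 1686 miRNA probes on the array. The LPS array held gill RNA of adults sampled at 12 h, whose body cavity had received 15 µl of lipopolysaccharide (LPS, an outer-membrane lipid of Gram-negative bacteria, 1 mg/ml, suspended in PBS). The control array held gill RNA of adults that received PBS alone, and its label states no time. There was 1 array per group, the sources used here do not say how many animals each array pools, and every probe was printed as 2 repeat spots, so the errors below (SE over repeat spots) are technical and no test between the groups was possible. In whole gill, fewer cells of a type and less RNA per cell cannot be told apart.

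A miRNA binds messenger RNAs mainly through its seed, bases 2 to 8 from the 5′ end, and lowers their translation or stability. miR-25, miR-92 and miR-363 share a seed, and miR-92 genes occur widely in bilaterian animals, invertebrates included. In vertebrates some miR-92 genes lie in polycistronic clusters together with miR-17, miR-18, miR-19 and miR-20. These clusters promote proliferation and lymphocyte survival in mammals. miR-93 and miR-106 are paralogs of miR-17 and miR-20 in the related clusters. Each hairpin yields a guide arm, which carries the seed named above, and an opposite passenger arm, usually degraded.

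Of the 85 probes, 45 belong to the miR-25 class (39 miR-92, 3 miR-25 and 3 miR-363 probes) and 40 to the class of miR-17, miR-18, miR-19, miR-20, miR-93 and miR-106. Amphioxus probes number 11, of which 5 (bbe) come from *B. belcheri* and 6 (bfl) from its relative *Branchiostoma floridae*. The other 74 were designed for zebrafish (dre), lamprey (pma), a clawed frog (xtr), tunicates (cin, csa, odi), a sea urchin (spu), an acorn worm (sko) and *Xenoturbella bocki* (xbo). The amphioxus guide-arm targets, as given in the scanner files, are shown first because they come from the studied species and its relative, with the seed in capitals.
bbe-miR-92c-3p: uAUUGCACuugucccggcucg
bbe-miR-92d-3p: uAUUGCACuuauccuggccugu
bfl-miR-92a: uAUUGCACuugucccggccuuu
bfl-miR-92b-3p: cAUUGCACucgucccggccuga
bfl-miR-92c: uAUUGCACuugucccggcuugc
All 5 carry the seed AUUGCAC, and they differ only outside it.

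A probe was counted as detected when its repeat spots averaged above 95% of that array's empty spots, which put the threshold at 143.5 on the LPS array and 121.9 on the control array. Over all probes, 339 (20.1%) were detected on the LPS array and 648 (38.4%) on the control array. Perfectly matched calibration spots on the LPS array had a median of 0.737 times their control-array signal (15 spot types, range 0.166 to 0.992). Tissue identity could be checked only coarsely. Probes of epithelial miRNAs from any species were detected for 24 of 50 on the LPS array and 36 of 50 on the control array. Muscle probes were detected for 6 of 35 on the LPS array and 20 of 35 on the control array. Neural probes were detected for 11 of 30 on the LPS array and 16 of 30 on the control array. Vertebrate blood probes were detected for 1 of 11 on each array.

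The members detected on both arrays were miR-92 probes, together with 1 miR-25 probe. Detected on the control array only were 5 probes of miR-92 and 6 of miR-17, miR-20 and miR-93. Of the members, 30 of 85 were detected on the LPS array and 41 of 85 on the control array, and every member detected on the LPS array was also detected on the control array. Among the 41, 1 was at least 2-fold higher on the LPS array, 11 were at least 2-fold lower with repeat spots that did not overlap between the arrays, and 29 did not pass. These are 2.44% higher and 26.8% lower, against 10.5% of all 684 detected probes in each direction. The split depended on the scaling. Members counted as higher and lower numbered 20 and 9 under median scaling, 17 and 9 when calibration spots set the scale, 0 and 10 by loess, 0 and 11 without normalization, and 19 and 18 in the authors' deposited table. Over all detected probes the same scalings gave 314 and 57, 177 and 63, 36 and 78, 25 and 128, and 161 and 289. The authors' deposited table holds 1 value per probe, so its counts rest on the fold alone, without the repeat-spot rule. The list of other families conserved across bilaterians gave 34 higher and 47 lower of 254 detected probes. Several members differ by only a few bases and may capture a common RNA, so the 41 are not separate measurements. The median log2 difference (LPS minus control, quantile-normalized intensity) was 0.01 over the detected members and -0.10 over all detected probes.

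The guide arms of amphioxus miR-92 separated into 4 probes with bright spots on both arrays and 1 that was lower on the LPS array. The *B. belcheri* probe bbe-miR-92c-3p had spot intensities of 56940 and 54648 on the LPS array, against 42900 and 39636 on the control array. Its spots were higher on the LPS array without overlap, and the normalized difference was 0.23 ± 0.15. The probe bfl-miR-92a had 72892 and 75076 on the LPS array, against 47455 and 39126 on the control array, with a normalized difference of 0.63 ± 0.23. The probe bfl-miR-92b-3p had 74325 and 62433 on the LPS array, against 43848 and 44371 on the control array, with a difference of 0.34 ± 0.16. In both of these the raw spots of the LPS array lay above those of the control array, while the normalized differences stayed under 2-fold. The probe bfl-miR-92c had 38475 and 34964 on the LPS array, against 34394 and 33190 on the control array (0.38 ± 0.14).

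The size of these 4 differences depended on how the arrays were scaled. With no normalization they lay between 0.12 and 0.78. With scaling on the calibration spots they lay between 1.00 and 1.66, with median scaling between 1.24 and 1.90, and in the authors' deposited table between 1.49 and 2.20. They were above 0 in each of these scalings and with loess, but past 2-fold only in the last 3. The median of all detected probes moved too, from -0.10 with quantile normalization to 0.70 with calibration spots, 0.94 with median scaling, -0.14 with loess, -0.18 with no normalization and -0.41 in the authors' deposited table.

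**Figure D1:**
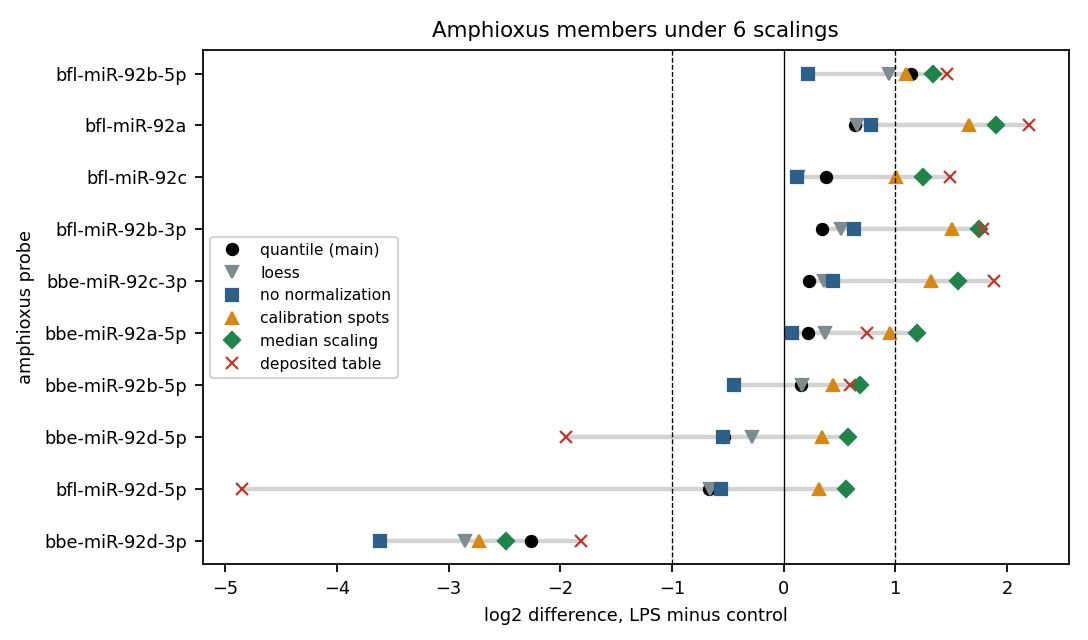
Log2 difference (LPS minus control, x axis) of the 10 detected amphioxus members (rows) under 6 scalings (symbols); dashed lines mark 2-fold and grey bars join the lowest and highest value. bbe-miR-92d-3p lies between -3.61 and -1.81 throughout, whereas bbe-miR-92b-5p, bbe-miR-92d-5p and bfl-miR-92d-5p lie on both sides of 0.

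The *B. belcheri* probe bbe-miR-92d-3p went the other way. It had 421.2 and 250.1 on the LPS array, against 4345 and 3562 on the control array, with no overlap. Its normalized signal was 4.79-fold lower (-2.26 ± 0.49), and it was below 0 in every scaling shown, from -3.61 with no normalization to -1.81 in the authors' deposited table. It is the only amphioxus member counted as lower. Among all amphioxus probes 8 of 204 detected were counted as lower and 34 as higher.

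Apart from cin-miR-92e-5p on the control array, passenger arms were dim on both arrays, and 7 of 13 were detected on the control array and 4 of 13 on the LPS array. The only member of the whole family counted as higher was bfl-miR-92b-5p, with 331.9 and 278.5 on the LPS array, against 281.4 and 300.5 on the control array. These raw spots overlap, and the 2.21-fold difference (1.14 ± 0.20) appeared after normalization, while it was 0.21 with no normalization. The *B. belcheri* counterpart bbe-miR-92b-5p differs from it by U10C (the *B. belcheri* base first, positions counted from 1 at the 5′ end). It had 207.5 and 196.5 on the LPS array, against 337.7 and 267.7 on the control array (0.15 ± 0.17, but -0.44 with no normalization). The probes bbe-miR-92d-5p and bfl-miR-92d-5p, which differ by G11U, were both below the detection threshold of the LPS array. bbe-miR-92d-5p had 109.3 and 118.6 on the LPS array, against 213.7 and 171.9 on the control array. Its difference was at least 1.09-fold lower (normalized -0.54 ± 0.16), but 0.58 with median scaling. bfl-miR-92d-5p had 99.5 and 86.9 on the LPS array, against 169.2 and 156.9 on the control array, without overlap (-0.67 ± 0.11, but 0.56 with median scaling). The bound of bfl-miR-92d-5p was 0.94-fold, which is below 1, so the bound does not place it lower. The probe bbe-miR-92a-5p had 173.4 and 124.6 on the LPS array, against 175.8 and 160.7 on the control array, and these spots overlap (0.21 ± 0.39). Among other species' passenger probes, cin-miR-92e-5p was 2.10-fold lower (-1.07 ± 0.20), with 232.7 and 253.6 on the LPS array, against 1073 and 1253 on the control array.

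Across species the guide arms of the miR-25 class were split by a stretch after the seed. In 18 of the 32 guide probes, bases 9 to 18 read UNGUCCCGGC (N being any base), as in 4 of the 5 amphioxus guides. This stretch, read off those 4, was found in 18 of all 1686 probes (1.07%), all of them members, and its reverse complement in 0. Those 4 are the amphioxus guides not counted as lower, so the stretch was partly set by the outcome. This split was also chosen after the values were seen, so it is given as a description without a test. All 18 probes with the stretch were detected on both arrays. Under quantile normalization none of them was counted as higher or lower, against 10.5% of all 684 detected probes in each direction. That count depended on the scaling. With median scaling 16 of the 18 were counted as higher (median 1.74), with calibration spots 15 (median 1.49) and 17 in the authors' deposited table (median 1.93), against 0 by loess (median 0.50) and 0 without normalization (median 0.61). Of all 684 detected probes, 314, 177, 161, 36 and 25 were counted as higher, in the same order. Under quantile normalization the differences of the 18 ran from -0.10 to 0.63 with a median of 0.36, and their mean intensities from 27210 to 74432 on the LPS array, against 33050 to 46655 on the control array. In raw intensity 15 of the 18 lay above the control array with no overlap of repeat spots, and 3 lay below it without overlap, namely xtr-miR-92a, spu-miR-92a and cin-miR-92b-3p. Those 3 stood at -0.10 ± 0.13, 0.01 ± 0.06 and 0.22 ± 0.05 after normalization. The 3 acorn worm probes sko-miR-92a, sko-miR-92b and sko-miR-92c stood at 0.53 ± 0.10, 0.50 ± 0.14 and 0.42 ± 0.02. The zebrafish probe dre-miR-92b was at 0.56 ± 0.01 and the sea urchin probe spu-miR-92c at 0.50 ± 0.02. The larvacean probe odi-miR-92a had 42568 and 59942 on the LPS array, against 42430 and 40280 on the control array, so that its spots barely cleared each other (0.17 ± 0.20).

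The remaining 14 guide probes carry a changed base between positions 9 and 18. Of these, 8 were detected on the LPS array and 10 on the control array. Counted as lower were 9 of the 10, against 10.5% of all 684 detected probes. The differences of the 10 ran from -5.55 to -0.40, with a median of -2.41, below the range of the 18 probes above. The ranges of the groups overlapped in several other settings. The highest changed probe and the lowest kept probe stood at 0.89 and 0.73 with median scaling, at 0.65 and 0.49 with calibration spots, at -0.24 and -0.39 without normalization, and at -0.24 and -0.28 without the first repeat spot. With undetected probes included they stood at 0.14 and -0.10. In the authors' deposited table both were at 0.88. The 9 lower probes are shown because each departs from the stretch, though not all at the same base, with bases 9 to 18 in capitals.
bfl-miR-92a, stretch kept: uauugcacUUGUCCCGGCcuuu
cin-miR-92d-3p: uauugcacCUGUCCCGGCcg
csa-miR-92c: uauugcacCUGUCCCGGCcgau
bbe-miR-92d-3p: uauugcacUUAUCCUGGCcugu
spu-miR-92d: uauugcacUUACCCCGGCug
spu-miR-92e: uauugcacUUACCCCGGCuua
cin-miR-92a-3p: uauugcacUUGUCCCGGUcuu
csa-miR-92a: uauugcacUUGUCCCGGUcua
cin-miR-92c-3p: uauugcacUCGUCCCGGUcuau
dre-miR-25: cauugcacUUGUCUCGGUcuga
Against bfl-miR-92a (its base first, positions from 1 at the 5′ end), the tunicate probes cin-miR-92d-3p and csa-miR-92c carry U9C. The probes bbe-miR-92d-3p, spu-miR-92d and spu-miR-92e carry G11A, and cin-miR-92a-3p, csa-miR-92a, cin-miR-92c-3p and dre-miR-25 carry C18U. Some carry another change within bases 9 to 18. With G11A, bbe-miR-92d-3p also carries C15U, and spu-miR-92d and spu-miR-92e also carry U12C. With C18U, dre-miR-25 also carries C14U, and cin-miR-92c-3p also carries U10C, at the base that the stretch leaves free.

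**Figure D2:**
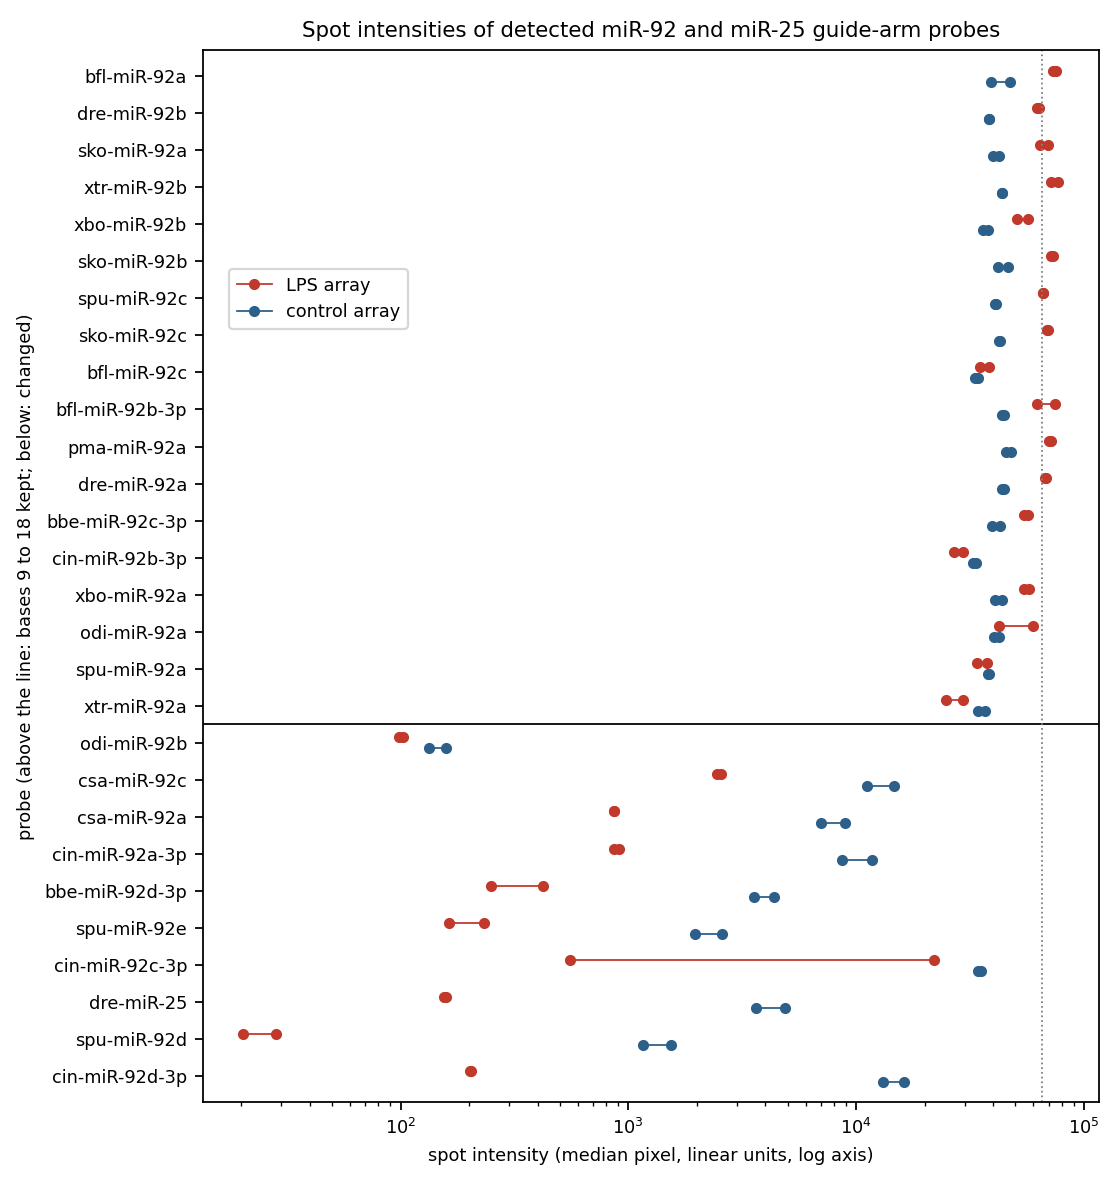
Intensity of both repeat spots (joined points, log x axis, linear intensity units) of the 28 detected guide-arm probes of miR-92 and miR-25 on the LPS array (red, upper of each pair) and the control array (blue); the dotted line marks 65535. Above the horizontal line are the 18 probes with bases 9 to 18 kept, whose arrays lie close together. Below it are the 10 with a changed base, whose raw spots all lie lower on the LPS array. Of these, odi-miR-92b was not counted as lower, and cin-miR-92c-3p shows spots far apart.

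The U9C probes showed the lowest value of the family and the mildest of the 9. cin-miR-92d-3p had 204.8 and 202.1 on the LPS array, against 13172 and 16221 on the control array, and was 47.0-fold lower (-5.55 ± 0.23). csa-miR-92c, whose first 20 bases are identical to it and which continues for another 2, had 2539 and 2459 on the LPS array, against 11216 and 14714 on the control array. It was 2.20-fold lower (-1.14 ± 0.38), so the longer probe's difference stood 4.42 log2 units above that of the shorter.

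Among the G11A probes, the sea urchin probe spu-miR-92d had 20.4 and 28.3 on the LPS array, against 1543 and 1156 on the control array. Its LPS signal did not reach the threshold, which makes it at least 6.11-fold lower, with LPS spots under the lowest empty spot of that array (64.7). spu-miR-92e had 162.6 and 233.5 on the LPS array, against 2578 and 1956 on the control array (5.93-fold lower, -2.57 ± 0.43). With bbe-miR-92d-3p, these 3 probes were below 0 in all scalings tried.

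Among the C18U probes, cin-miR-92a-3p had 860.7 and 914.3 on the LPS array, against 11771 and 8633 on the control array. It was 4.45-fold lower (-2.15 ± 0.28), and against bfl-miR-92a it differs only by C18U and a 3′ end shorter by 1 base. csa-miR-92a had 868.7 and 863.3 on the LPS array, against 7035 and 8915 on the control array (3.39-fold lower, -1.76 ± 0.25). The zebrafish probe dre-miR-25, the only detected probe named miR-25, had 158.7 and 155.0 on the LPS array, against 4888 and 3626 on the control array. It was 14.2-fold lower (-3.83 ± 0.17) and carries C14U as well. cin-miR-92c-3p had 555.2 and 21915 on the LPS array, against 35213 and 34422 on the control array. Its value (-2.76 ± 2.51) rested on LPS spots 5.03 log2 units apart, and it was at 0.88 in the authors' deposited table.

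The tenth, odi-miR-92b of a larvacean tunicate, had 98.5 and 102.2 on the LPS array, against 133.7 and 157.9 on the control array, and was not detected on the LPS array. Its normalized difference was -0.40 ± 0.12, but its bound was 0.85-fold, which is below 1 and does not place it lower. The other 4 probes with a changed stretch, cin-miR-92e-3p, pma-miR-25b-3p, dre-miR-363 and xtr-miR-363-3p, were detected on neither array. A probe with a change inside the seed was not lower. xbo-miR-92b, with U3C inside the seed and bases 9 to 18 kept, had 51078 and 57073 on the LPS array, against 36114 and 37835 on the control array (0.50 ± 0.09). Guide probes were also counted by edits (bases changed, added or removed) from the closest amphioxus guide. Of these, 1 of 5 was lower at 0 edits, 0 of 3 at 1 edit and 2 of 10 at 2 edits. Further out, 5 of 7 were lower at 3 edits and 1 of 2 at 4 edits. At 5 edits 1 of 3 was detected and 0 were lower, and the probes at 7 and 8 edits were detected on neither array.

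**Figure D3:**
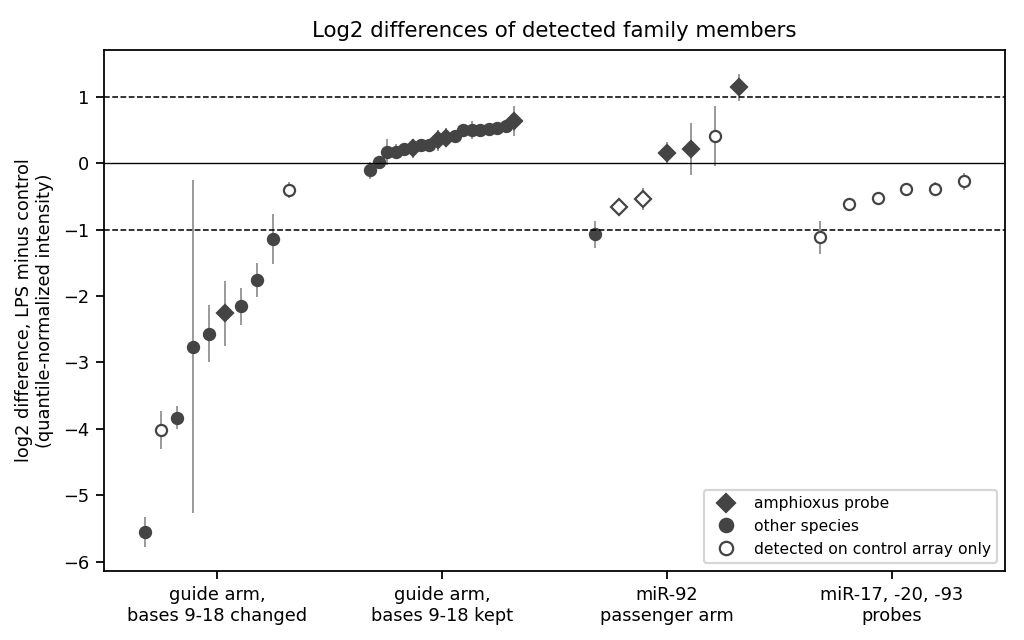
Log2 difference, LPS minus control (y axis, quantile-normalized), of the 41 detected members with SE over repeat spots, by group; dashed lines mark 2-fold, diamonds are amphioxus probes and open symbols were detected on the control array only. Guide arms with a changed base between positions 9 and 18 lie from -5.55 to -0.40, and those with the stretch kept from -0.10 to 0.63.

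The mismatched calibration spots, which are not miR-92 probes, also differed between the arrays. As a percentage of the perfectly matched spot, the mismatched spot had a median of 1.19% on the LPS array and 10.3% on the control array, and 22 of 23 pairs were lower on the LPS array. Pairs were used where the mismatched spot passed the threshold on the control array, a choice that leans towards pairs lower on the LPS array. The part of this shift in the lower values of members with a changed stretch was not tested.

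Among detected guide probes, 4 pairs were identical except for 1 more base at the 3′ end. Under quantile normalization the longer probe stood above the shorter by 0.04 to 0.60 log2 units. xtr-miR-92a, with 29512 and 24908 on the LPS array, against 34256 and 36888 on the control array, stood at -0.10 ± 0.13. dre-miR-92a continues it by 1 base and stood at 0.27 ± 0.03, with 68148 and 67662 on the LPS array, against 43770 and 44563 on the control array, a step of 0.38. sko-miR-92b continues it by 1 base too, and the step was 0.60. The pair cin-miR-92b-3p and bfl-miR-92a differed by 0.42 log2 units in the same direction, whereas xtr-miR-92b and dre-miR-92b, also 1 base apart in length, differed by 0.04. The order of xtr-miR-92b and dre-miR-92b depended on the scaling. The longer dre-miR-92b stood below xtr-miR-92b without normalization (0.71 against 0.77) and with loess (0.62 against 0.64). It also stood below with median scaling and with calibration spots.

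The top of the LPS scan was taken up by this family. All 16 spots of the LPS array above 65535 belonged to 9 miR-92 probes with bases 9 to 18 kept, and the brightest spot outside the family was at 58925.5. On the control array no spot exceeded 65535, and no member's spot reached it. xtr-miR-92b had 71907 and 76957 on the LPS array, against 43631 and 43899 on the control array (0.51 ± 0.05). pma-miR-92a had 70309 and 71376 on the LPS array, against 45458 and 47852 on the control array (0.27 ± 0.04). Any rescaling of the LPS scan is unknown here. With spots set to no more than 65535 the median of the 18 probes was 0.32 and their range -0.10 to 0.56.

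The miR-92 seed also occurred outside the family. AUUGCAC stood at bases 2 to 8 of 48 probes (2.85% of all), 31 of them members and 17 outside the family by name. Of those 17, 4 were detected on the LPS array and 5 on the control array, with 1 counted as higher and 0 as lower. The probe bbe-miR-2059-5p (uAUUGCACuguuuugcuuuga) averaged 2886 on the LPS array and 3665 on the control array and was the higher one after normalization (1.11 ± 0.16). bbe-miR-2076-5p (aAUUGCACuagagugauuuguu) averaged 37358 on the LPS array and 36598 on the control array (0.22 ± 0.37). These amphioxus miRNAs are 7 and 9 edits from the closest amphioxus miR-92 guide.

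The class of miR-17, miR-18, miR-19, miR-20, miR-93 and miR-106 was close to background on both arrays. Of 40 probes, 0 were detected on the LPS array and 6 (15%) on the control array. Other zebrafish, lamprey and clawed frog probes outside the family were detected in 96 of 590 cases (16.3%) on the LPS array and 209 of 590 (35.4%) on the control array. Seeds are shown for the zebrafish members because they differ from that of miR-92, again in capitals.
dre-miR-17a-5p: cAAAGUGCuuacagugcaggua
dre-miR-18a: uAAGGUGCaucuagugcagaua
dre-miR-19b-3p: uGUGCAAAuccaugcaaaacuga
All 10 miR-18 and all 10 miR-19 probes were below the threshold on both arrays, as was the only miR-106 probe. The 6 probes detected on the control array were dre-miR-17a-3p, dre-miR-17a-5p, pma-miR-17b, dre-miR-20b, xtr-miR-93a and xtr-miR-93b. dre-miR-17a-3p, a passenger arm, had 125.7 and 96.6 on the LPS array, against 296.6 and 290.8 on the control array, and was the only one whose mean exceeded the highest empty spot of the control array (202.7). It was counted as lower at -1.11 ± 0.25, but its bound was at least 1.58-fold and it stood at -0.19 with median scaling. The other 5 lay between 127.9 and 150.0 on the control array and did not pass.

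**Figure D4:**
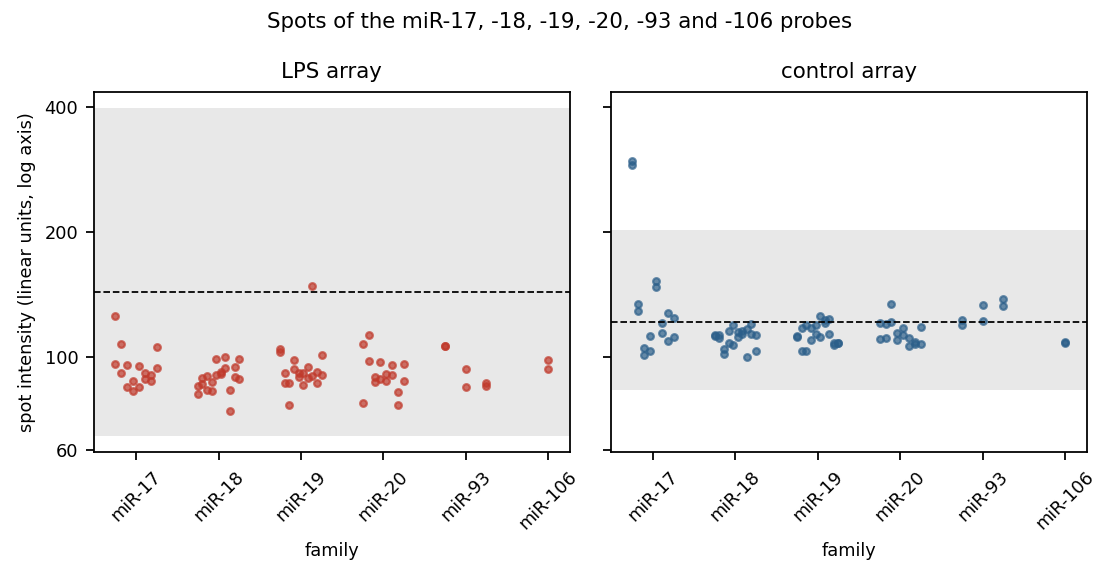
Spot intensities (log y axis, linear units) of the 40 probes of miR-17, miR-18, miR-19, miR-20, miR-93 and miR-106 on the LPS array (left) and the control array (right), 2 spots per probe; grey bands span the empty spots and dashed lines mark the detection thresholds of 143.5 and 121.9. Every spot lies inside the grey bands except 1 pair. The pair at 296.6 and 290.8 on the control array is dre-miR-17a-3p.

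The single amphioxus probe of this class, bfl-miR-19-3p, had 103.1 and 105.0 on the LPS array, against 112.0 and 112.9 on the control array, below both thresholds. Its target was compared with the other miR-19 probes because its seed is not the one of miR-19.
bfl-miR-19-3p: gUUUUGCAgguuugcauccaga
dre-miR-19b-5p: aGUUUUGCugguuugcauucag
It lies 4 edits from the zebrafish passenger arm dre-miR-19b-5p, and 11 to 14 edits from the probes of miR-19 guide arms, although its name gives the 3p arm.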

How the data were processed

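The scanner files, as deposited by the authors, hold 1 median Cy3 intensity per spot, per the file headers, which the values show to be linear, with no background column. Per the labels' protocols total RNA was poly(A)-tailed and joined to a Cy3 tag. The authors' deposited table gives a processed intensity for each probe, and the sources used here do not state its background correction, scaling or centring. Its column medians were 3.42 (LPS) and 6.88 (control), and in probes above 1000 on both arrays its values were a median of 1.23 (LPS) and 0.430 (control) times the spot intensity less the empty-spot median.

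Background was corrected by normexp (offset 50, limma 3.58.1, R 4.3.3), and spots were converted to log2, quantile-normalized over the 3372 miRNA spots and averaged over 2 repeat spots. Higher and lower probes were those detected on at least 1 array, at least 2-fold different, and with repeat spots not overlapping between arrays. In the authors' deposited table, and with 1 repeat spot left out, the overlap rule was not applied. Before log2, 1 was added to each deposited value. For probes detected on 1 array, the bound used the dimmer array's lowest detected normalized signal, or the probe's own where that was higher. Steps were tested on simulated data. Both simulated arrays were built from the control array with no overall difference between them, so the choice of scaling was not tested there. Named were all amphioxus members, all counted members, the 5 brightest per array and those within 2 edits of an amphioxus guide. Further names, and the split at bases 9 to 18, were chosen after values were seen. The members and lists were chosen with earlier results of these data known. Alternatives covered background, scaling, detection, fold threshold and repeat spots. With 1 array per group, their number limits the precision.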

Additional observations from a re-analysis of the deposited data

Results flagged for a closer look

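In the scanner file of the LPS array a second intensity column is empty except for 1 cell, in the row of a member, csa-miR-92c. That cell holds 5410, which is 2.20 times the intensity of the same spot (2459), while the column has 0 filled cells on the control array. It lies outside the columns used in any comparison. Its meaning is unknown here.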

How the results depend on the processing

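The count of lower members (11) lay between 8 and 13 in all alternatives but the authors' deposited table, which gave 18 without the repeat-spot rule. The members it added to the 11 were not detected on the LPS array, with deposited LPS values from 0.01 to 13.8. The count of higher members (1) followed the scaling, with 20 under median scaling, 17 with calibration spots and 19 in the deposited table, against 0 with loess, with no normalization, with an offset of 200, at a 3-fold threshold and without the first repeat spot, and 2 at 1.5-fold. The members' median (0.01) was 0.95 with median scaling, 0.71 with calibration spots and 0.88 in the deposited table. Relative to all detected probes it was 0.11, and 1.28 in the deposited table. cin-miR-92c-3p turned to 0.88 in the deposited table, and no other counted member changed sign in the alternatives run. The cause of these shifts was not tested. Unnormalized values, median scaling and calibration scaling are shifted copies of each other, so they are not separate checks. With spots over 2-fold apart left out, 10 members were lower. Among members detected on the LPS array the repeat spots had a pooled SD of 0.68 log2 units, and 0.21 without cin-miR-92c-3p, against 0.19 on the control array. Capping spots at 65535 was chosen after seeing the data and left both counts as they were. No paired analysis was possible because each group has 1 array.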
